A study of Mus musculus with 12 samples.

Results

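Kinesin motor genes were taken as the genes whose symbol is Kif with a number, with or without letters around it, or Klc with a digit, which gave 45 of the 24525 genes in the count tables. They were measured by RNA-seq in 6 input libraries, that is, fragmented mRNA of neural stem/progenitor cells (NSPCs) that was set aside before m6A immunoprecipitation. The cells were grown as neurospheres from the forebrain of C57BL/6 embryos at E14.5, with EGF, bFGF, N2 and B27 without vitamin A, and were collected at passage P1. Of the libraries, 3 came from wild-type and 3 from *Ythdf2*-/- embryos, in which Cre expressed throughout the body had removed the 5′ UTR and exon 1 of *Ythdf2*, the gene of an m6A reader that promotes decay of its target mRNAs. Both genotypes carried the same strain background and received no treatment, and whether a library held 1 embryo or several is not given in the sources used here. The 6 m6A-IP samples were not analysed here. The study calls the 3 libraries of a genotype biological replicates, and neither the labels nor the methods say whether they came from separate litters.

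Kinesins are motors that use ATP to walk along microtubules or to take their ends apart. Mitotic kinesins separate the spindle poles, bundle the central spindle, move chromosomes and complete cytokinesis, and their genes are transcribed mainly late in the cell cycle. Transport kinesins carry vesicles, organelles and RNA granules and are best known from axons and dendrites, while further members move cargo along cilia. The embryonic forebrain uses the first kind in its dividing progenitors and depends on the second kind in its neurons.

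By role, 13 of the 45 genes were mitotic kinesins, 17 transport kinesins, 4 kinesin light chains, 6 kinesins of cilia and 5 others. The comparison rested on 6 mitotic kinesins (*Kif11*, *Kif15*, *Kif20a*, *Kif23*, *Kif4* and *Kif2c*) and 5 transport kinesins (*Kif1a*, *Kif5a*, *Kif5b*, *Kif5c* and *Kif3a*). The libraries held between 11029827 and 13185778 counted reads, and kinesin genes took 0.407% to 0.463% of them. A low-count filter left 42 kinesins among 13112 tested genes. *Kif26b* did not pass, and *Kif12* and *Kif2b* had 0 reads in each library, which allows up to 3 reads per library.

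One library stood apart from the rest. Wild-type replicate 3 lay at 91.0 on the first principal component, which held 74.2% of the variance, with the rest of the libraries spread over -30.6 to -6.04. The targeted gene followed the labels, with *Ythdf2* at 71.9, 73.3 and 91.4 CPM (counts scaled to the size of the library) in wild type and 11.7, 14.7 and 11.1 CPM in *Ythdf2*-/-. Genotype results are therefore given with and without wild-type replicate 3, and levels are listed in the order of replicates 1, 2 and 3.

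The mitotic kinesins were expressed in 5 libraries and were almost missing from wild-type replicate 3. All 13 of them had their lowest level there, as did 34.4% of all genes tested, and for all 13 the lowest of the other 5 libraries was more than 4 times that level, which held for 3.14% of all genes tested. The median of the other 5 libraries was 24.3 times (*Kif15*) to 126 times (*Kif23*) the level in wild-type replicate 3 among the 6 genes of the comparison, and 8.61 times (*Kif18b*) at the least among all 13.

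*Kif11*, the kinesin-5 that pushes spindle poles apart, lies on chromosome 19 from 37376382 to 37421863, plus strand, in mm10. It had 253, 231 and 5.03 CPM in wild type and 164, 226 and 183 CPM in *Ythdf2*-/-. *Kif15*, a kinesin-12 that helps to keep the spindle bipolar, lies on chromosome 9 from 122951081 to 123018733 and had 78.0, 74.4 and 3.02 CPM in wild type and 50.7, 73.3 and 60.7 CPM in *Ythdf2*-/-. In both genes wild-type replicates 1 and 2 and *Ythdf2*-/- replicate 2 were close together, and the other *Ythdf2*-/- libraries were lower.

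*Kif23*, the motor of the centralspindlin complex needed for cytokinesis, lies on chromosome 9 from 61917277 to 61946810, minus strand. Its levels were 80.9, 69.6 and 0.549 CPM in wild type and 47.2, 69.0 and 58.6 CPM in *Ythdf2*-/-. The value in wild-type replicate 3 rested on 6 reads, with an exact 95% Poisson interval of 2.2 to 13.1 reads that covers counting error only, whereas the other libraries had 554 to 945 reads. *Kif20a*, another kinesin-6 of the central spindle, lies on chromosome 18 and had 94.3, 90.2 and 3.11 CPM in wild type and 64.9, 96.7 and 63.9 CPM in *Ythdf2*-/-. Exons of *Kif20a* share 1344 bases with *Brd8* and *Cdc23* on the opposite strand, so part of its count is uncertain.

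*Kif4*, a chromokinesin that shapes condensed chromosomes and the central spindle, lies on chromosome X from 100626065 to 100727271. Its levels were 108, 91.9 and 3.39 CPM in wild type and 73.4, 95.7 and 77.5 CPM in *Ythdf2*-/-. *Kif2c*, a kinesin-13 that does not walk but takes microtubule ends apart at kinetochores, lies on chromosome 4 from 117159633 to 117182624 and had 87.5, 80.2 and 1.01 CPM in wild type and 53.8, 86.4 and 54.4 CPM in *Ythdf2*-/-. In all 6 genes wild-type replicate 3 was thus far below the rest and *Ythdf2*-/- replicates 1 and 3 were below both wild-type replicates 1 and 2, while the place of *Ythdf2*-/- replicate 2 varied, from the highest library (*Kif20a*) to below both of those wild-type libraries (*Kif11*, *Kif15* and *Kif23*).

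**Figure D1:**
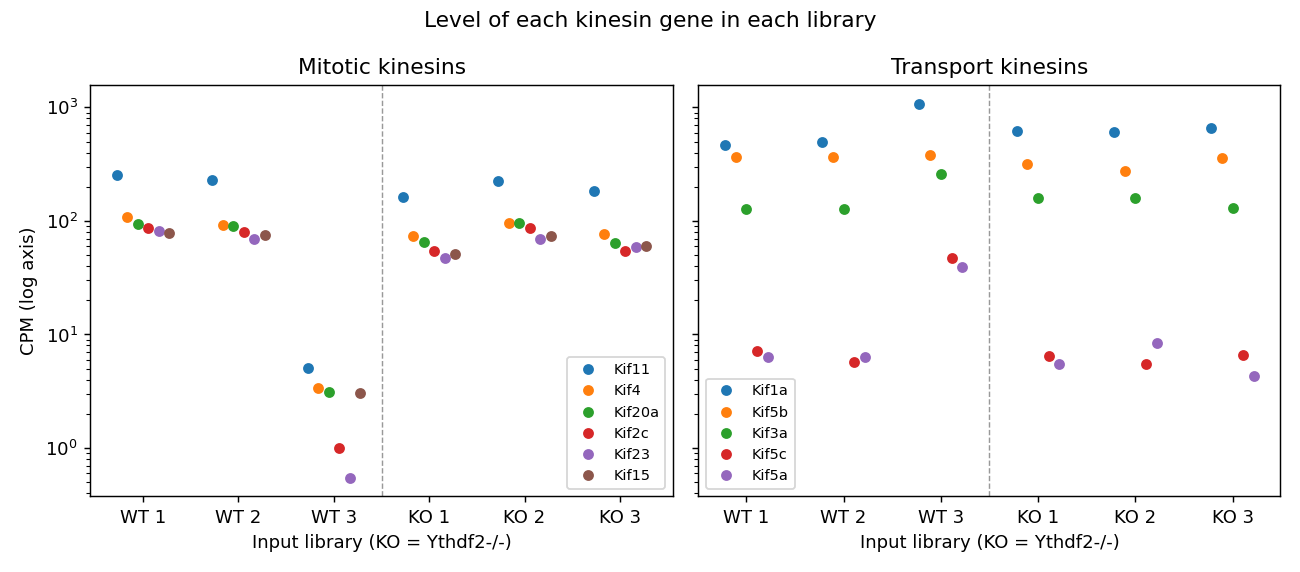
Level of the 6 mitotic (left) and 5 transport kinesins (right) in each input library, in CPM on a log axis, with 1 point per gene and library and a dashed line between the genotypes. All 6 mitotic kinesins lie between 0.549 and 5.03 CPM in wild-type replicate 3 and at 47.2 CPM or above in the other 5 libraries, and all 5 transport kinesins are highest in wild-type replicate 3.

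The promoters of the mitotic kinesins shared a short sequence that the comparison did not use. Genes of late cell cycle phases often carry a cell cycle genes homology region (CHR), to which the MuvB complexes bind, and a CCAAT box, which NF-Y binds. RefSeq windows from 250 bases before to 50 bases after an annotated start (GRCm38.p6) were at hand for 36 of the 45 kinesin genes, and were searched on both strands for the CHR letters TTTGAA and TTTAAA, which can overlap each other in part, and for CCAAT. A CHR was present in 11 of the 12 mitotic kinesins with a window, in 1 of 11 transport kinesins and in 30.6% of all 27025 genes with a window (27.6% of 32851 windows). The element TTTGAA alone was in the same 11 mitotic kinesins and in 20.2% of all genes (17.9% of windows). A CHR together with CCAAT was found in 8 of 12 mitotic kinesins, in 0 of 11 transport kinesins and in 12.2% of all genes (10.7% of windows). *Kif18a*, the mitotic kinesin whose window held no CHR, was also lowest in wild-type replicate 3, at 4.58 CPM against 42.9 to 68.9 CPM elsewhere. The transport kinesin with a CHR was *Kif1a*, in 1 of its 2 windows. A CHR together with CCAAT was also found in *Kif27* of cilia and in *Kif26b*. Both were highest in wild-type replicate 3, at 2.38 and 3.66 CPM from 26 and 40 reads. Below are the 30 bases around the CHR nearest the start in the mitotic kinesins of the comparison with a window, 5′ to 3′ on the strand of the gene, with the CHR in capitals; TTCAAA is TTTGAA on the other strand. These 5 genes were all lowest in wild-type replicate 3, with *Ythdf2*-/- replicates 1 and 3 next. Whether a CHR has a part in these levels was not tested.
Kif11, chr19:37376351-37376380, plus strand: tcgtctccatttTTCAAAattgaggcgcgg
Kif15, chr9:122951050-122951079, plus strand: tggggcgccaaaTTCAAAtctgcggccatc
Kif23, chr9:61946780-61946809, minus strand: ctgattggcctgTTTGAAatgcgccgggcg
Kif4, chrX:100626072-100626101, plus strand: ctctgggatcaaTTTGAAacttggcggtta
Kif2c, chr4:117178858-117178887, minus strand: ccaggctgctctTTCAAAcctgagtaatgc

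In *Kif11*, *Kif15*, *Kif23* and *Kif4* the CHR began within 19 bases of the annotated start, and in *Kif2c* it began 103 bases before the start of its window, which lies inside the gene, downstream of the outermost annotated start. A CCAAT box lay upstream of the CHR, with starts 26 bases apart in *Kif11*, 24 in *Kif4* and 9 in *Kif23*. A match of letters is a description of the sequence and not a measured binding site. Among the other mitotic kinesins, *Kif14*, which acts in cytokinesis, carried a TTTAAA, with the following 30 bases on chr1:136467794-136467823, plus strand, shown as the one form of the CHR not seen in the lines above.
Kif14: gatctctctcttTTTAAAgtttgtagtaac

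The further 7 mitotic kinesins went the same way as the 6. *Kif22*, a chromokinesin that pushes chromosome arms outward, had 106, 99.5 and 2.01 CPM in wild type and 61.6, 95.3 and 69.0 CPM in *Ythdf2*-/-. *Kif18b*, which limits the length of astral microtubules, had the smallest loss, with 5.95 CPM in wild-type replicate 3 against 38.4 to 61.5 CPM in the other libraries. *Kif14*, *Kif18a*, *Kif20b*, *Kifc1* and *Kifc5b* had 0.732 to 4.58 CPM in wild-type replicate 3. *Kifc1* and *Kifc5b* are near-identical copies, so the division of reads between them is uncertain.

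Transport kinesins were the larger share of kinesin mRNA and behaved differently from gene to gene. All 5 of the comparison were highest in wild-type replicate 3, from 1.06 times (*Kif5b*) to 7.43 times (*Kif5c*) the median of the other libraries, whereas 33.8% of all genes tested were highest there. Of all 17 transport kinesins, 11 were highest in wild-type replicate 3 and 3 were lowest.

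*Kif1a*, the kinesin-3 that carries synaptic vesicle precursors and dense core vesicles, lies on chromosome 1 from 93015455 to 93102039, minus strand. It had 469, 498 and 1079 CPM in wild type and 619, 603 and 663 CPM in *Ythdf2*-/-. Wild-type replicate 3 was the highest library, the other wild-type libraries were the lowest and the *Ythdf2*-/- libraries lay between them. *Kif3a*, a motor subunit of kinesin-2, which serves cilia as well as axonal cargo, lies on chromosome 11 from 53565701 to 53604248. Its levels were 128, 128 and 258 CPM in wild type and 158, 159 and 129 CPM in *Ythdf2*-/-.

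The 3 heavy chains of conventional kinesin (kinesin-1), which share light chains and much of their cargo, differed most. *Kif5b*, the form made in nearly all tissues, lies on chromosome 18 and had 367, 364 and 382 CPM in wild type and 316, 276 and 360.5 CPM in *Ythdf2*-/-, so that all 3 *Ythdf2*-/- libraries were below all 3 wild-type libraries. *Kif5a*, a form made in neurons, lies on chromosome 10 from 127225695 to 127266348 and had 6.33, 6.33 and 39.4 CPM in wild type and 5.46, 8.44 and 4.26 CPM in *Ythdf2*-/-. *Kif5c*, the other form enriched in neurons, lies on chromosome 2 from 49619286 to 49774778 and had 7.19, 5.72 and 47.5 CPM in wild type and 6.40, 5.48 and 6.6 CPM in *Ythdf2*-/-. *Kif5a* and *Kif5c* were thus low in 5 libraries and high in wild-type replicate 3, where each was over 4 times the highest of the others, which held for 0.923% of all genes tested. Per length, as CPM per kilobase of exon (RPKM), *Kif5b* made up 83.5% of the 3 heavy chains in wild-type replicate 3 and 95.8% to 97.4% in the other 5 libraries. *Kif5c* made up 9.11% in wild-type replicate 3 and 1.34% to 1.72% in the others.

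Among the other transport kinesins, *Kif21a*, a kinesin-4 of axons that slows microtubule growth, had 95, 102 and 334 CPM in wild type and 110, 206 and 84.2 CPM in *Ythdf2*-/-. *Kif1b*, which carries mitochondria and synaptic vesicle precursors, had 781, 818 and 1130.1 CPM in wild type and 1007, 892 and 1018 CPM in *Ythdf2*-/-. *Kif3b*, the partner of *Kif3a*, was the steadiest kinesin gene, with a highest over lowest level of 1.10 among the 5 libraries without wild-type replicate 3. The ratio of wild-type replicate 3 to the median of the others was 0.973 for *Kif3b* and 2.0 for *Kif3a*. As a share of the kinesin-2 genes by RPKM, *Kif3a* took 61.1% in wild-type replicate 3 and 39.4% to 47.4% in the other 5 libraries. *Kifc3*, a minus-end motor of epithelial junctions, was among those lower in wild-type replicate 3, at 0.547 of the median of the others.

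Light chains link kinesin-1 to cargo. *Klc1*, the main light chain of the brain, had 161, 149 and 205 CPM in wild type and 145, 166 and 138 CPM in *Ythdf2*-/-, and it took 69.6% to 74.3% of light chain RPKM in each of the 6 libraries. *Klc1*, *Klc2* and *Klc4* were highest in wild-type replicate 3, at 1.33 to 1.38 times the median of the others. *Klc3*, at 3 to 26 reads per library, was lowest there, and its exons share 585 bases with *Ercc2* on the opposite strand.

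Kinesins of cilia ranged from 0.119 RPKM (*Kif27*) to 5.01 RPKM (*Kif7*) as the median of the libraries. *Kif6*, a kinesin-9 of motile cilia on chromosome 17 from 49615098 to 49909847, had 0.685, 0.611 and 0.732 CPM in wild type and 1.79, 2.15 and 1.05 CPM in *Ythdf2*-/-, from 8 reads in each wild-type library and 13 to 29 in *Ythdf2*-/-. *Kif19a*, which sets the length of motile cilia, lies on chromosome 11 from 114764970 to 114791166 and had 2.74, 4.04 and 8.51 CPM in wild type and 11.5, 14.1 and 5.39 CPM in *Ythdf2*-/-. Its libraries overlapped between genotypes through wild-type replicate 3 and *Ythdf2*-/- replicate 3. *Kif26a*, an atypical kinesin-11 without motor activity on chromosome 12 from 112143974 to 112181747, had 0.941, 0.839 and 12.4 CPM in wild type and 3.75, 1.48 and 1.93 CPM in *Ythdf2*-/-. *Kif7*, which regulates Hedgehog signalling from the tip of the primary cilium, was the most abundant of the 6 cilium kinesins, and *Kif26a* was no cilium gene but one of the 5 others. The 12 multiciliated and ependymal markers summed to 39.4 to 44.6 CPM in each library, with *Foxj1* at 25.6 to 28.8 CPM.

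Per length, the order of the kinesins over the 6 libraries was led by transport genes. The median RPKM was 73.4 for *Kif1a*, 63.2 for *Kif1b* and 60.0 for *Kif5b*, whose ranges over libraries overlapped. *Klc1* followed at 48.7 RPKM, then *Kif11* at 42.2, the most abundant mitotic kinesin, and *Kif22* at 39.8. Their ranges overlapped too, with *Klc1* at 43.2 to 64.6 RPKM and *Kif11* at 1.04 (wild-type replicate 3) to 52.3 RPKM. The remaining mitotic kinesins of the comparison lay between 13.9 RPKM (*Kif15*) and 21.8 RPKM (*Kif2c*), closer to each other than their own range between libraries. *Kif5a* and *Kif5c* had medians of 0.904 and 0.946 RPKM.

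**Figure D2:**
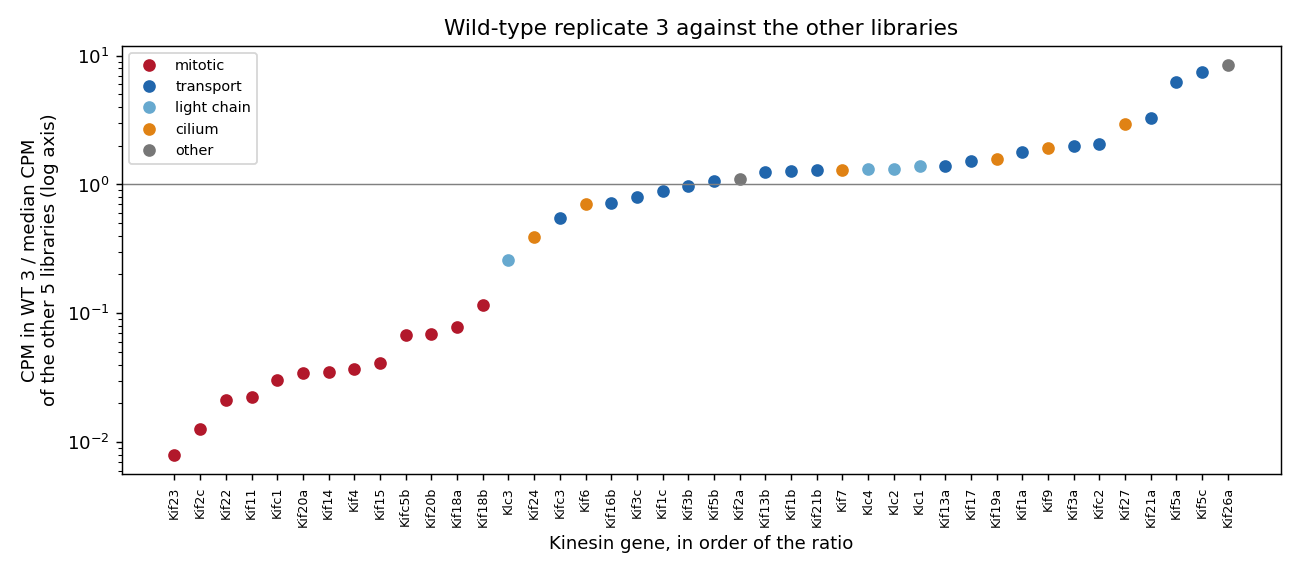
CPM in wild-type replicate 3 divided by the median CPM of the other 5 libraries, on a log axis, for the 42 tested kinesin genes in order of that ratio and coloured by role. The 13 mitotic kinesins take the 13 lowest places, from 0.00796 (Kif23) to 0.116 (Kif18b), and Kif5a, Kif5c and Kif26a have the highest ratios, up to 8.41.

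Summed over each list, the mitotic kinesins of the comparison had 702, 637 and 16.1 CPM in wild type and 454, 647 and 498 CPM in *Ythdf2*-/-. The transport kinesins of the comparison had 978, 1001 and 1807 CPM in wild type and 1105, 1052 and 1163 CPM in *Ythdf2*-/-. The mitotic list took 17.0%, 15.6% and 0.345% of all kinesin reads in wild type and 10.9%, 15% and 11.1% in *Ythdf2*-/-. The sum of all 45 genes moved far less, between 4095 and 4670 CPM, and was highest in wild-type replicate 3. In kinesin-13, *Kif2c* took 1.95% of the RPKM of *Kif2a* and *Kif2c* in wild-type replicate 3 and 54.2% to 70.2% in the other 5 libraries, while *Kif2a*, a form that also acts in neurons, had 94.8 to 109 CPM in 5 libraries and 78.7 CPM in *Ythdf2*-/- replicate 2. In bulk RNA, fewer cells that express a gene and less of its RNA per cell cannot be told apart.

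**Figure D3:**
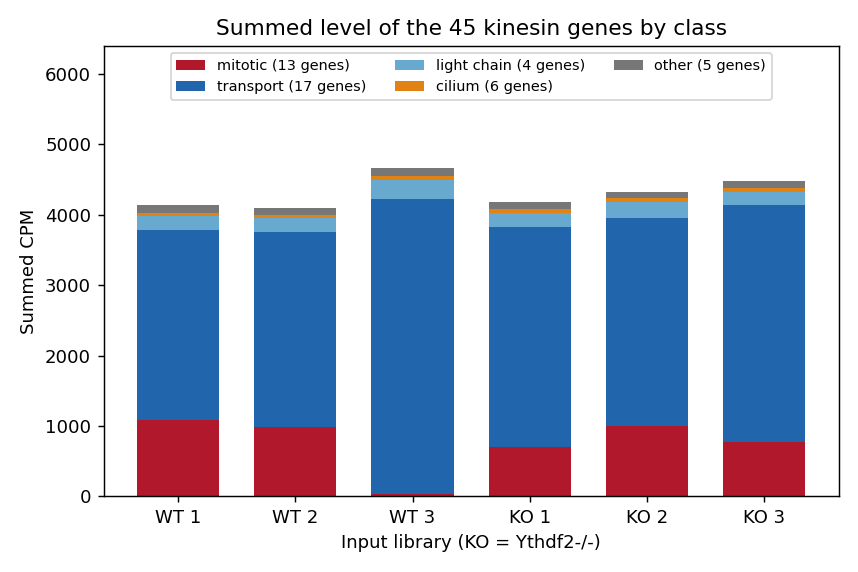
Summed CPM of the 45 kinesin genes in each input library, stacked by role, with the number of genes of each role in the legend. The 13 mitotic kinesins sum to 34.7 CPM in wild-type replicate 3 and to 704 to 1078 CPM in the other libraries, while the whole bar stays between 4095 and 4670 CPM.

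Partners of these motors also differed in the same library. All 20 listed spindle partners, among them *Tpx2*, which targets *Kif11* and *Kif15* to the spindle, *Racgap1*, which binds *Kif23*, and *Prc1*, which binds *Kif4*, were lowest in wild-type replicate 3, with a sum of 61.9 CPM there and 1695 to 2630.1 CPM elsewhere. The list also holds *Cenpe*, which is itself a mitotic kinesin but was not taken in by its symbol. *Tpx2* had 267, 249 and 3.84 CPM in wild type and 173, 265 and 199 CPM in *Ythdf2*-/-. Of 19 tested adaptors and partners of transport kinesins, 14 were highest and 2 lowest in wild-type replicate 3, beside 33.8% and 34.4% of all genes tested, with a sum of 3330.3 CPM there and 2273 to 2627 CPM elsewhere. The genes of dynein and dynactin, the motor of the opposite direction and its activator, summed to 3735 CPM there and 2984 to 3071 CPM elsewhere, and 12 of 20 were highest and 3 lowest there.

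Markers of cell state and cell type also differed in wild-type replicate 3, where 33.8% of all genes tested were highest and 34.4% lowest. The 14 proliferation markers were all lowest there, with a sum of 206 CPM against 2284 to 3375 CPM, and *Mki67* had 698, 603 and 9.98 CPM in wild type and 554, 594 and 677 CPM in *Ythdf2*-/-. Neural progenitor markers summed to 4139 CPM there and 5723 to 7780 CPM elsewhere, with 5 of 12 lowest and 6 highest there. Neuronal markers summed to 3587 CPM against 2100 to 2630 CPM, with 11 of 17 tested highest and 1 lowest there, and astroglial markers to 16173 CPM against 4692 to 12815 CPM, with 6 of 11 highest and 0 lowest there. Oligodendrocyte lineage markers summed to 5720 CPM against 1849 to 2264 CPM, with 8 of 11 tested highest and 3 lowest there. Each listed gene of the progenitor, neuronal, astroglial and oligodendrocyte lineage lists had reads in wild-type replicate 3.

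Markers of cells from outside the neural lineage were low. The microglia and macrophage markers summed to 10.1 CPM in wild-type replicate 3 and 3.33 to 6.59 CPM elsewhere, with *C1qa*, *C1qb* and *C1qc* at 0 reads in all 6 libraries. Endothelial markers summed to 1.28 CPM and 1.63 to 4.02 CPM, with *Cldn5* at 0 reads in all 6, and mesenchymal markers to 32.9 CPM and 3.63 to 7.40 CPM. Nearly all of the last value was *Pdgfrb*, a receptor of pericytes, at 31.8 CPM in that library. The part of any of these markers in the kinesin levels was not tested.

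The comparison of genotypes asked whether loss of *Ythdf2* went with a different level of kinesin mRNA in the neurospheres. With all 6 libraries, edgeR's quasi-likelihood test called 0 of 42 kinesins at an adjusted p under 0.05, and it called 0% of all genes tested. At an unadjusted p under 0.05 it counted 1 kinesin, *Kif6*, as higher in *Ythdf2*-/- and 0 as lower, against 1.81% and 1.82% of all genes tested, or 3.63% in either direction. Each kinesin had an adjusted p of 0.999. The deleted gene itself missed the threshold in that fit, with *Ythdf2* at a log2 fold change of -2.66 and an adjusted p of 0.0547 from edgeR, and passed it without wild-type replicate 3 (adjusted p = 0.0203), so 0 calls do not show that kinesin levels were equal.

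*Kif6* was higher in 3 of 3 *Ythdf2*-/- libraries, with a log2 fold change of 1.29 (standard error 0.397, unadjusted p = 0.0162 from edgeR over all genes). Without wild-type replicate 3 it was 1.35. It did not pass the correction, rests on few reads, and had an unadjusted p above 0.05 from edgeR with the replicate number as a block and without wild-type replicate 2 or *Ythdf2*-/- replicate 2 (0.0534 to 0.0618). The groups also did not overlap for *Kif5b* and *Kif2a*, both lower in *Ythdf2*-/-. Such separation was found for 4.92% of all genes tested downward, 5.24% upward and 10.2% in either direction. The exact two-sided permutation p of such a gene is 0.1, the smallest that 3 against 3 libraries allow. The mean level of *Kif5b* was 371 ± 9.91 CPM for wild type and 318 ± 42.2 CPM for *Ythdf2*-/- (SD, n = 3 each). On the log2 scale its fitted fold change was -0.22 with a standard error of 0.149, and -0.20 without wild-type replicate 3.

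The 6 mitotic kinesins had fitted log2 fold changes of 0.21 to 0.28, with a median of 0.24 and standard errors of 0.942 to 1.19, and 6 of 6 were above 0, beside 48.1% of all genes tested. For *Kif11* the mean was 163 ± 137 CPM among wild-type libraries and 191 ± 31.9 CPM among *Ythdf2*-/- libraries (SD, n = 3 each), so the genotypes differed by less than the spread within wild type. The transport kinesins had a median of -0.22, with 5 of 5 below 0, led by *Kif5c* at -1.71 (standard error 0.839) and *Kif5a* at -1.52 (standard error 0.80). The median over all genes tested was -0.01.

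Without wild-type replicate 3 both lists gave other values. The mitotic median turned to -0.32, with 6 of 6 below 0, and all 13 mitotic kinesins were below 0, beside 48.3% of all genes tested. These genes vary together across libraries and are not independent of each other. Their standard errors were 0.146 to 0.225 for the 6 genes, and no adjusted p was below 0.326, that of *Kif11*. The transport median was -0.06, with 2 genes above 0 and 3 below, so the large negative values of *Kif5a* and *Kif5c* (now -0.06 and -0.07) rested on that library. *Kif1a* turned from -0.12 to 0.38 (standard error 0.117) and *Kif3a* from -0.20 to 0.22.

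In that fit 0 kinesins had an adjusted p under 0.05, beside 0.0151% of all genes, and the smallest, 0.199, was that of *Kif20b*, a kinesin-6 of cytokinesis in cortical progenitors. At an unadjusted p under 0.05, 8 kinesins were higher, beside 8.03% of all genes, and 1 was lower, *Kif20b* at -0.38 (standard error 0.0998), beside 8.58%. The higher genes were *Kif1a*, *Kif13a* and *Kif13b*, which carry vesicles and endosomes, *Kif6*, *Kif7* and *Kif19a* of cilia, *Kif26a* and the light chain gene *Klc4*. Their log2 fold changes ran from 0.28 for *Kif13a* to 1.60 for *Kif19a*, which was 1.02 with all 6 libraries, and that of *Kif26a* was 1.41, against -0.98 with all 6. Over the 42 tested kinesins, all 3 *Ythdf2*-/- libraries lay above wild-type replicates 1 and 2 in 11 genes and below them in 8, beside 18.8% and 20.1% of all genes. None of the 9 genes with an unadjusted p under 0.05 passed the correction over all genes.

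**Figure D4:**
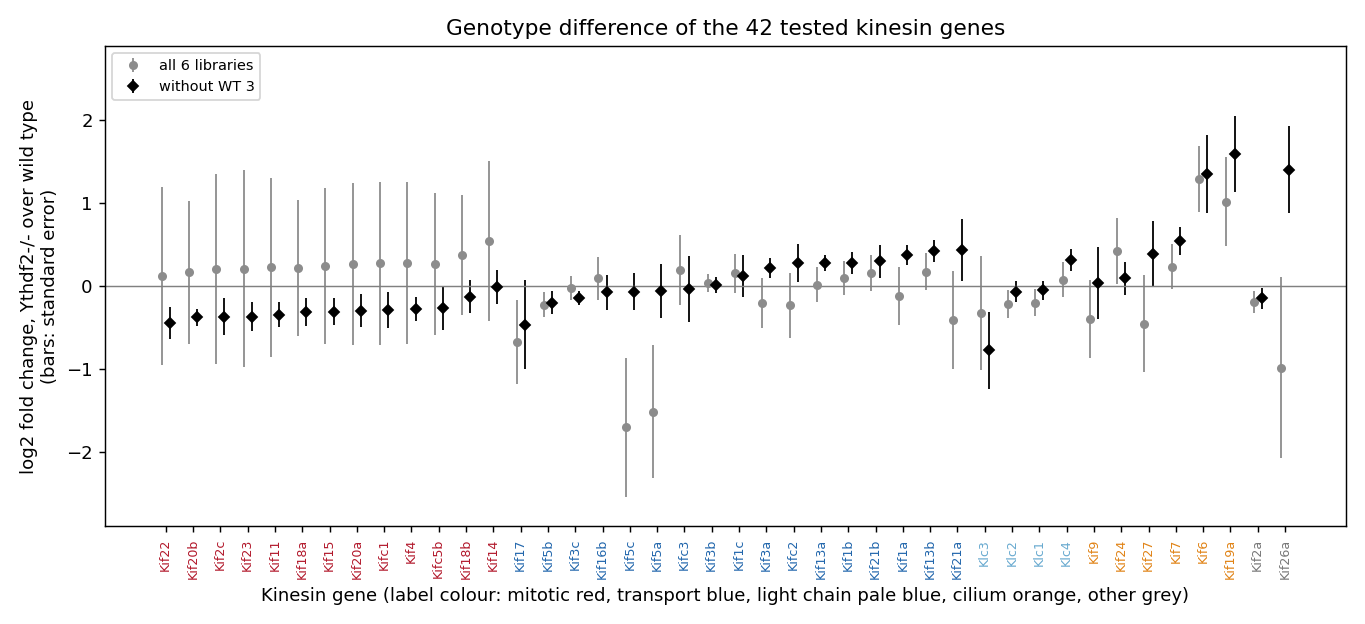
Fitted log2 fold change (Ythdf2-/- over wild type) of the 42 tested kinesin genes from edgeR, with all 6 libraries (grey circles) and without wild-type replicate 3 (black diamonds). Bars are standard errors, and all 13 mitotic kinesins are above 0 with all libraries and below 0 without that library.

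The lower mitotic values came mainly, but not in each gene, from 2 of the 3 *Ythdf2*-/- libraries. Replicates 1 and 3 were below both wild-type replicates 1 and 2 in 13 of 13 mitotic kinesins, whereas replicate 2 was at or above the lower of them in 8 of 13. In 5 of the 13 genes all 3 *Ythdf2*-/- libraries were below wild-type replicates 1 and 2, beside 20.1% of all genes. Among them was *Kif20b*, with 39.0, 41.6 and 44.1 CPM in *Ythdf2*-/- against 54.1 and 53.8 CPM in those wild-type libraries. The sums of the spindle partners had the same order, at 1695, 2340.2 and 1885 CPM in *Ythdf2*-/- against 2630.1 and 2299 CPM in those wild-type libraries. In 9 of the 20 genes all 3 *Ythdf2*-/- libraries were below both, beside the 20.1% of all genes. In edgeR without wild-type replicate 3, 7 of them were lower at an unadjusted p under 0.05, beside 8.58% of all genes. At an adjusted p under 0.05 there were 0. The sum of the proliferation markers was 2284, 2504 and 2528 CPM in *Ythdf2*-/- against 3375 and 3024 CPM, and 11 of the 14 genes, beside the same 20.1% of all genes, had all 3 *Ythdf2*-/- libraries below both wild-type libraries, with 0 at an adjusted p under 0.05 in edgeR (10 at an unadjusted p under 0.05). Replicate 2 also stood apart from the other *Ythdf2*-/- libraries in astroglial markers, which summed to 12815, 4692 and 8926 CPM in replicates 1, 2 and 3. Whether these markers have a part in the kinesin values was not tested.

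The difference between the lists within a library gives the same picture on 1 scale. The mean log2 CPM of the mitotic list minus that of the transport list was 0.73, 0.65 and -6.29 in wild type and 0.08, 0.57 and 0.27 in *Ythdf2*-/-. The mean was -1.64 ± 4.03 for wild type and 0.31 ± 0.25 for *Ythdf2*-/- (SD, n = 3 each), a difference of 1.94 that is less than the spread within wild type. Against wild-type replicates 1 and 2 alone, the difference was -0.38, and all 3 *Ythdf2*-/- libraries were below both.

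The deposited table of expected counts gave another account of the mitotic kinesins. Over all genes, expected counts summed to 1.97% to 2.40% of the raw counts. The 6 mitotic kinesins had 299, 374 and 231 expected counts in wild type and 316, 297 and 287 in *Ythdf2*-/-, without the loss in wild-type replicate 3. These sums were 132% of the raw reads of the same genes in wild-type replicate 3 and 3.40% to 5.94% in the other libraries. *Kif20a* made up 72.6% to 86.2% of these sums, while *Kif11* had 39.0, 30.9 and 33.0 expected counts in wild type and 17.8, 22.9 and 34.2 in *Ythdf2*-/-. The 5 kinesins whose exons share at least 100 bases with a gene on the opposite strand (*Kif20a*, *Kif2a*, *Kif3c*, *Kifc2* and *Klc3*) held 66.2% to 79.5% of kinesin expected counts and 5.13% to 8.61% of kinesin raw counts. *Klc3* had a median of 56.0 expected counts beside 14 raw reads. The strand setting behind either table is not given in the sources used here, so whether the expected counts hold reads of the opposite strand was not tested. The levels above therefore rest on the raw counts alone, and the deposited TPM and FPKM were not used.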

How the data were processed

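Per the submitters' processing notes, Bowtie2 2.2.9, RSEM 1.2.15, featureCounts and mm10 were used, whereas the study's methods name TopHat and Cuffnorm. The libraries were strand-specific, and the strand setting of the counting is not given in the sources used here. The authors deposited raw counts, that is, whole reads per gene without normalization, and, in a separate table per library, expected counts, TPM and FPKM with the columns of an RSEM output. Raw counts were used for all levels and tests, and expected counts only for the comparison at the end of the report. The deposited TPM and FPKM were not used.

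Genes passing filterByExpr were tested with edgeR 4.0.16 in R 4.3.3 (TMM, glmQLFit with the robust option, glmQLFTest, two-sided), with no term beside genotype and with p-values adjusted by Benjamini-Hochberg over all 13112 genes. The standard error is the size of the log2 fold change divided by the square root of F. CPM used TMM-scaled totals, log2 CPM a prior count of 2, and RPKM the merged exon length of RefSeq NM and NR transcripts (GRCm38.p6, the assembly also called mm10). The common biological coefficient of variation was 0.332. The script was tested on simulated data. DESeq2 1.42.0 and limma 3.58.1 were alternatives, with other filters, scalings and covariates and leaving out each library.

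The members, the gene lists and the tests were chosen with earlier results of these data known. Values were given in each library for the 11 kinesins of the comparison and *Ythdf2*. The same was done for other kinesins with an unadjusted p under 0.05, and the 5 with the largest fold changes, in the edgeR fit with all 6 libraries. It was also done for those over 4 times the next library with at least 30 reads in that library. Up to 3 of the most abundant genes of a list were named. Other kinesins, and the comparisons of wild-type replicate 3, of families by RPKM and of expected counts, were chosen after their values were seen. Promoter sequences came from RefSeq windows of GRCm38.p6. Same-numbered libraries were not treated as pairs, and a fit with the replicate number as a block was an alternative. Their deviations from the group means had correlations of -0.39 to -0.24 across genes. Wild-type replicate 3 weighs on the wild-type mean behind these values, so they cannot show whether the libraries were paired.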

Additional observations from a re-analysis of the deposited data

How the results depend on the processing

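Few reads limited *Kif6* and, at 6 to 65 reads in wild-type replicate 3, the mitotic kinesins. That library was not shallow, with 11029827 counted reads beside at most 13185778 in another. The 3 libraries per genotype, 1 of which stood apart, limited each genotype value. The count of all genes at an adjusted p under 0.05, 0 with edgeR, was 1 with DESeq2's size factors, 1 without the low-count filter, 1 with at least 10 reads in every library, 13 with a term for Y-linked reads (0 higher, 13 lower), 80 with DESeq2's Wald test (39 higher, 41 lower), 632 with limma-voom and sample quality weights (333 higher, 299 lower) and 0 to 2 when 1 library was left out (2 without wild-type replicate 3). The count of kinesins, 0, was 1 with the quality weights (*Kif19a*, adjusted p = 0.049 from limma) and stayed at 0 under the other 13 fits. Y-linked reads were present in wild-type replicates 1 and 2 and *Ythdf2*-/- replicate 3 and not in the other 3 libraries, so without wild-type replicate 3 they go with genotype in all but 1 library, and that fit was not run with the term. The requirement of at least 10 reads removed 6 kinesins from the test (*Kif23*, *Kif6*, *Kif17*, *Kif27*, *Kifc5b* and *Klc3*). Quality weights gave wild-type replicate 3 a weight of 0.0901.

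The mitotic median of 0.24 reversed to -0.40 with the quality weights and to -0.32 without wild-type replicate 3, took a value of 2.01 once presence of Y-linked reads was a term, and leaving out 1 library gave -0.32 to 0.69. The transport median stayed below 0 in each of 15 alternatives, from -0.38 to -0.06 when 1 library was left out, but was only -0.024 with the quality weights (2 of 5 genes above 0) and -0.022 with the wider list (8 of 17 above 0). For the difference of the lists, 1.94, leaving out 1 library gave -0.38 (without wild-type replicate 3) to 3.13, and it was -0.19 as the log2 ratio of summed expected counts, an alternative chosen after seeing the data. With the quality weights the log2 fold changes reversed to -0.46 (*Kif2c*), -0.43 (*Kif23*), -0.41 (*Kif15*), -0.39 (*Kif11*), -0.38 (*Kif20a*), -0.30 (*Kif4*), 0.35 (*Kif1a*), 0.23 (*Kif3a*) and 1.65 (*Kif26a*). Leaving out 1 library gave -0.37 to 0.67 for *Kif2c*, -0.37 to 0.73 for *Kif23*, -0.31 to 0.67 for *Kif15*, -0.34 to 0.69 for *Kif11*, -0.29 to 0.68 for *Kif20a*, -0.28 to 0.78 for *Kif4*, -0.33 to 0.38 for *Kif1a*, -0.38 to 0.22 for *Kif3a* and -1.48 to 1.41 for *Kif26a*. Each of these reversed without wild-type replicate 3, and *Kif2c* also reversed, to -0.05, without *Ythdf2*-/- replicate 2. *Kif5a*, *Kif5b*, *Kif5c*, *Kif6* and *Kif19a* kept their direction in every fit that gave a value, but not their size: with the quality weights *Kif5c* was -0.024 and *Kif5a* -0.25, and *Kif19a* was 0.62 beside the Y-linked term. The replicate number as a block left 0 kinesins and 0 genes called, gave a mitotic median of 1.03 and turned *Kif26a* to 0.053. The cause of these differences was not tested.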
